A study of Mus musculus with 2 samples.

Results

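The 49 genes described here encode collagens, the enzymes and chaperone that fold and crosslink them, small leucine-rich proteoglycans, and elastic-fibre and matricellular proteins. They were taken by gene symbol from the 27998 genes of the deposited UMI (unique molecular identifier) tables. The list was drawn up with earlier results of these data known. They fall into 5 role groups of 10 fibrillar, fibril-associated and microfibrillar collagens, 10 basement membrane genes, 7 crosslinking and folding genes, 6 proteoglycans and 16 elastic and matricellular genes. Single cells of the stromal vascular fraction, the non-adipocyte cells of adipose tissue, were profiled from epididymal white adipose tissue of wild-type male C57BL/6J mice aged 18 weeks. One group was fed a normal chow diet (NCD) and the other a high-fat diet (HFD) for 12 weeks. Tissue was freed into cells with type II collagenase, and the number of mice behind each library is not given in the sources used here. Each diet has 1 droplet-based 3' library, so no test was made, diet and library cannot be told apart, and every interval below covers counting error only.

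Adipose matrix is made largely by the Pdgfra-positive stromal cells that include adipocyte progenitors. Type I and III collagens form the fibrils, type V sets their diameter, and type VI forms a beaded network around adipocytes. Adipocytes and vessels also sit on a basement membrane of type IV collagen, laminin, nidogen and perlecan. Lysyl oxidases crosslink collagen and elastin outside the cell, while lysyl and prolyl hydroxylases and the chaperone HSP47 act on procollagen inside it. Expansion of this matrix is a known feature of obese fat.

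The NCD library held 33825653 UMIs on 7365 barcodes and the HFD library 18623508 UMIs on 6840 barcodes, with medians of 4230 and 2020 UMIs per barcode, and 64 barcodes occurred in both. After filters on cells and doublets, cells were clustered with the 49 genes left out and classed by markers that include none of them. The classes were progenitors (3211 NCD and 2858 HFD cells), mesothelial cells (54 and 60) and endothelial cells (344 and 218). All 8 progenitor markers, all 10 mesothelial markers and all 9 endothelial markers stood above their library's mean level in their own class in both libraries. Progenitors were divided within each library into interstitial cells (Pi16 and Dpp4 list, 885 and 735), F3 Gdf10 cells (655 and 606) and cells scoring highest on a committed preadipocyte list (1671 and 1517). The single HFD cluster on the committed list was led by Spp1, Mmp12, Fcgr3, Ccl6 and Ctss, genes of macrophages, which go against that name. It is therefore called the HFD committed-list cluster. Values, ratios and counts that set it beside the NCD committed-list cells compare unlike populations and are not read as diet differences. The F3 Gdf10 clusters of the libraries were also unlike. The NCD cluster was led by Mfap4, Col8a1, Cilp, Fxyd6 and Eln and the HFD cluster by Sned1, Sfrp1, Auts2, Inmt and Mdk, with none of the leading 10 genes shared, so their diet ratios set different populations side by side. In the joint clustering each progenitor cluster also came mostly from 1 library, such as 2 NCD and 956 HFD cells in one, 523 and 35 in the one led by Mfap4, and 604 and 50 in another. Ratios over all progenitors therefore compare different clusters as well as diets.

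RNA of other cell types was far more common in the HFD library. The 8 macrophage markers had a median level of 2.82% of their library mean in NCD progenitors and 22.6% in HFD progenitors, and summed to 149 and 1326 CPM (counts per 1000000 UMIs). By HFD cluster this share was 30.8% in the committed-list cluster, 27.8% in the larger interstitial cluster of 625 cells, 11.0% in the F3 Gdf10 cells and 3.98% in the smaller interstitial cluster of 110 cells. The 8 progenitor markers were at 5.39% of library level in NCD endothelial cells and 62.6% in HFD endothelial cells. Lymphocytes, which should lack most matrix genes, held the 49 genes at a summed 3995 (NCD) and 16040.2 (HFD) CPM, and are used below as a measured background. Values are therefore also given for the clusters where the markers of other cells had a median of 25% of library level or less, called clusters with little free RNA. In HFD progenitors these are 716 cells, the 110 interstitial and 606 F3 Gdf10 cells, while the NCD side keeps all 3211 cells, 1671 of them on the committed list. Ratios over all progenitors in this setting therefore compare unlike mixtures of subsets. The part of free RNA in the diet differences of all cells was not tested.

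The promoter windows of 6 genes are shown because the diet ratios of Col1a2, Col3a1, Postn and Fbln7 carry the results on fibrils and matricellular genes and because Col4a1 and Col4a2 share a promoter region. Each is 300 bases from RefSeq on GRCm38.p6, 250 before and 50 after the gene start, read 5′ to 3′ on the strand of the gene. The Col1a2 window is chr6:4505368-4505667 on the plus strand, that of Col3a1 chr1:45311288-45311587 on the plus strand, and that of Postn chr3:54360857-54361156 on the plus strand. That of Fbln7 is chr2:128863682-128863981 on the plus strand, that of Col4a1 chr8:11312777-11313076 on the minus strand and that of Col4a2 chr8:11312555-11312854 on the plus strand. GENCODE vM21, used below for gene positions, starts Col1a2 at base 4504814 and Fbln7 at base 128862981. Both of those starts lie upstream of the windows shown. Capitals mark matches on either strand to the TATA box letters TATAAA, the CCAAT box letters CCAAT, the GC box letters GGGCGG and the AP-1 site letters TGACTCA.
Col1a2: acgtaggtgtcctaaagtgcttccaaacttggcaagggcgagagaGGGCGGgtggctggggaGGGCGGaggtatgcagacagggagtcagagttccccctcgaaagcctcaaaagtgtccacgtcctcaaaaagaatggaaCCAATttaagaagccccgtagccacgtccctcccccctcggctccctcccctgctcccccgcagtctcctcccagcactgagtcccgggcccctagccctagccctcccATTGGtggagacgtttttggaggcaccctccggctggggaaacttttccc
Col3a1: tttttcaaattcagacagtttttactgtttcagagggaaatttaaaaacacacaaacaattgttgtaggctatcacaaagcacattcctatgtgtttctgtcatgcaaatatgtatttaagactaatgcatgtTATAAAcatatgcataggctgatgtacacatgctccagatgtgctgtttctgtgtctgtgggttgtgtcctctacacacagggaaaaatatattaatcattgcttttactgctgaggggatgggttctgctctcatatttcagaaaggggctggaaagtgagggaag
Postn: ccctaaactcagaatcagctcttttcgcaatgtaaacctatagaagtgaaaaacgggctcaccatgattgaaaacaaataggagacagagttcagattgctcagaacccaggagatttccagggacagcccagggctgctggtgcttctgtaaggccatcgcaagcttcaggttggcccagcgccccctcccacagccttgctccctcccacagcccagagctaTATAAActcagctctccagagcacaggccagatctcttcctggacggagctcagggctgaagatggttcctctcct
Fbln7: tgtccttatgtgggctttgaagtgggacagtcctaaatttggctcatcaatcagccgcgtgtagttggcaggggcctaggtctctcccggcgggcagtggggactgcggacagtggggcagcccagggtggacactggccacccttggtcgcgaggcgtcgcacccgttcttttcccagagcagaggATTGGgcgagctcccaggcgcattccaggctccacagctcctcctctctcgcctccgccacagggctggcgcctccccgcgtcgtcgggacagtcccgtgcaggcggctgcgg
Col4a1: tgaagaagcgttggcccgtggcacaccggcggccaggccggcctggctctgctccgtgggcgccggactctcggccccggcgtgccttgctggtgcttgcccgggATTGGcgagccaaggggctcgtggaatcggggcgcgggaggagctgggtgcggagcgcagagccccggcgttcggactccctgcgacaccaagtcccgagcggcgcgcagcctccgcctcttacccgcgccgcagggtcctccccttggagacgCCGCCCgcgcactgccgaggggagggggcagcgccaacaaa
Col4a2: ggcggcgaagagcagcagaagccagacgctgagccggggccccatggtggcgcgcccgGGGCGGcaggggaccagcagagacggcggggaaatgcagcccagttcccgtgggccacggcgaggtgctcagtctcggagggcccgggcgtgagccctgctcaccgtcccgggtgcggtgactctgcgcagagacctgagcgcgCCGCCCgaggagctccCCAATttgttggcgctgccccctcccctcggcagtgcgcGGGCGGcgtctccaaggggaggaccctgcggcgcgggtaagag
The 2 type IV collagen genes lie on opposite strands with starts 21 bases apart. Their annotated 5′ ends overlap, so that each gene first runs across the start of the other. Their windows share 78 bases. A GC box match lies in the shared bases and is counted in both. A promoter window was found for 32 of the 49 genes. TATAAA occurred in 7 of these 32 and in 13.6% of all 32851 promoter windows, among them Col3a1 and Postn of the genes shown. CCAAT occurred in 12 of the 32 and in 37.4% of all windows, GGGCGG in 20 of the 32 and in 35.7%, and TGACTCA in 1 of the 32, Col6a1, and in 5.20%. No match overlapped another in the windows shown, and a match is a description of letters, not of binding.

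The other close pairs of genes lie on GRCm38 as GENCODE vM21 places them. Col3a1 and Col5a2 stand on opposite strands of chromosome 1 with 24614 bases between them, and Dcn and Lum on 1 strand of chromosome 10 with 46984 bases between them. Fmod and Prelp are 115839 bases apart on chromosome 1, and Col6a1 and Col6a2 85161 bases apart on chromosome 10. The neighbours Lum and Dcn had opposite diet ratios over all progenitors, Lum 2.84-fold higher and Dcn 1.76-fold lower in the HFD library. Dcn was within 1.5-fold in interstitial and in F3 Gdf10 cells. It stood at 27831 CPM in NCD committed-list cells and 10749 CPM in the HFD committed-list cluster, which are unlike populations.

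The 49 genes took a larger share of the RNA in progenitors than in the other classes. In the NCD library the 49 genes took 4.99% of progenitor UMIs, 2.98% of mesothelial UMIs, 0.617% of endothelial UMIs and 0.156% of macrophage UMIs. Among the 3 progenitor groups and the mesothelial and endothelial classes, 21 of the 49 genes were highest in F3 Gdf10 cells, 15 in committed-list cells, 7 in interstitial cells, 4 in mesothelial cells and 2 in endothelial cells. In the HFD library 26 were highest in F3 Gdf10 cells and 12 in interstitial cells, and 24 genes had the same highest class in both libraries. All but 1 of the 49 reached 50 CPM in at least 1 of these classes. The exception was Tnc, tenascin C, which peaked at 17.1 CPM in HFD endothelial cells.

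**Figure D1:**
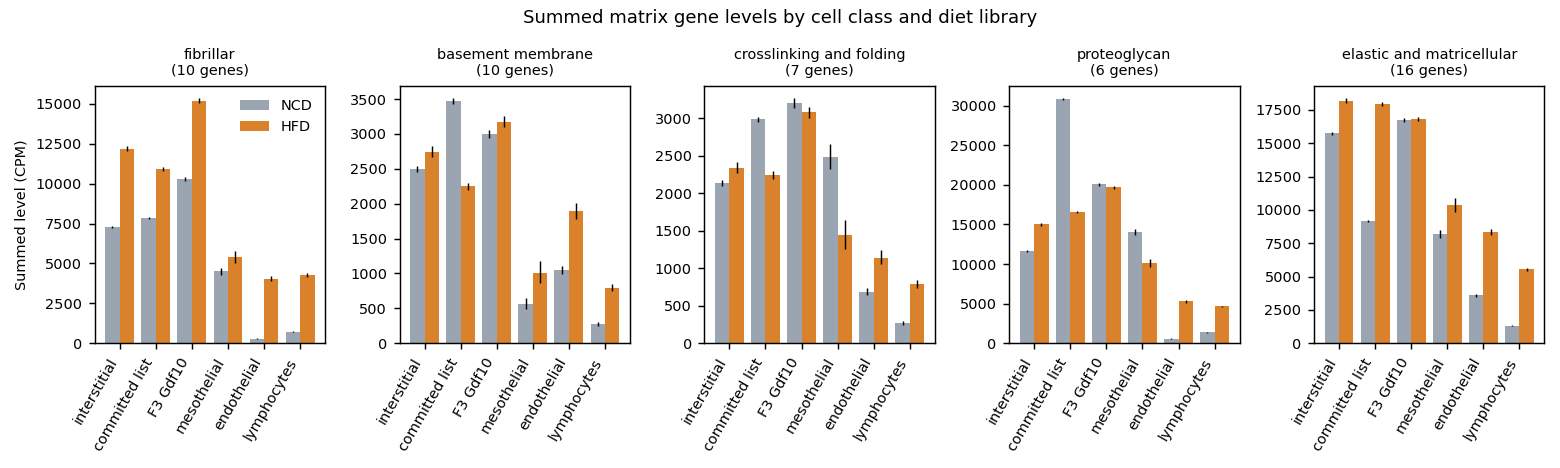
Summed level in CPM (vertical axes, each starting at 0) of the 5 role groups in the 3 progenitor groups, mesothelial cells, endothelial cells and lymphocytes, for the NCD (grey) and HFD (orange) libraries. Bars are 1 library each and error lines are exact 95% Poisson intervals. The summed fibrillar level was higher in the HFD library in each progenitor group, for example 7274 and 12184 CPM in interstitial cells. The committed-list and F3 Gdf10 populations are unlike between the libraries. The HFD levels in endothelial cells (4047 CPM) and lymphocytes (4282 CPM) were close to each other.

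Interstitial cells of the NCD library had higher levels of some matrix genes than committed-list cells and lower levels of others. Fbn1, fibrillin 1 of the microfibrils, stood at 2064 CPM in interstitial and 231 CPM in committed-list cells, a ratio of 8.93 (95% interval 8.49 to 9.39). Col14a1, a fibril-associated collagen, stood at 927 and 66.1 CPM, a ratio of 14.0 (12.8 to 15.4). Fn1, fibronectin, was 6.27-fold higher, Postn, periostin, 5.62-fold, and Mfap5, a microfibril protein, 3.85-fold. Genes of microfibrils and of cell adhesion were among these 5.
The basement membrane collagens ran the other way. Col15a1, a collagen at the junction of basement membrane and fibrils, was 9.52-fold lower in interstitial cells (42.7 against 406 CPM), Col4a1 3.89-fold lower (186 against 724 CPM) and Col4a2 4.09-fold lower (109 against 445 CPM). The laminin and nidogen genes did not all follow. Lama4, a laminin alpha chain, was 2.15-fold and Nid1, nidogen 1, 1.82-fold higher in interstitial cells, whereas Lama2 was lower (95.6 against 203 CPM).
Of 47 genes at or above 10 CPM in either population, 12 were at least 1.5-fold higher in interstitial cells and 21 at least 1.5-fold lower, against 13.3% and 16.7% of all 8054 genes. The median log2 ratio was -0.34 for these genes and -0.08 for all genes.

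The crosslinking group divided, with the lysyl oxidases on both sides. Loxl1 and Loxl2, lysyl oxidase-like enzymes, were 2.11-fold and 1.57-fold higher in NCD interstitial than in committed-list cells. The other 5 genes of the group were at least 1.5-fold lower there: Lox, the procollagen hydroxylases Plod1, Plod2 and P4ha1, and Serpinh1, which encodes the collagen chaperone HSP47 and stood at 1221 against 2277 CPM. Dcn, decorin, which binds fibrils and limits their fusion, was 2.98-fold lower in interstitial cells (9346 against 27831 CPM). The matricellular gene Thbs1, thrombospondin 1, was 5.61-fold lower and Mgp, matrix Gla protein, an inhibitor of mineral deposition, 7.12-fold lower.

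F3 Gdf10 cells of the NCD library had the highest elastin level of the 3 progenitor groups. Eln, elastin, stood at 752 CPM there, 104 CPM in committed-list cells and 84.0 CPM in interstitial cells. Mfap4, a microfibril-associated protein that binds elastin, stood at 352, 11.7 and 30.2 CPM, a ratio of 30.0 (24.3 to 37.5) over committed-list cells. Mgp stood at 3858 CPM against 801 and 112 CPM. None of the 49 genes had been used to form this population. Against interstitial cells, 4 other microfibril and elastic fibre genes did not follow elastin. Fbn1 stood at 712 CPM against 2064 CPM in interstitial cells, Mfap5 at 2609.9 against 4421 CPM, Efemp1 at 369 against 1105 CPM, and Fbln5 at 219 against 218 CPM. Against committed-list cells, Fbn1 (231 CPM there) and Mfap5 (1149 CPM) were at least 1.5-fold higher in F3 Gdf10 cells, as elastin was. Efemp1 (502 CPM) and Fbln5 (146 CPM) were within 1.5-fold.
Fbln2, a fibulin of elastic fibres and basement membranes, was 2.48-fold higher than in committed-list cells, Fbln1 2.18-fold, Loxl1, the lysyl oxidase-like enzyme that acts on elastin, 2.55-fold, and Bgn, biglycan, 2.97-fold. Of the 47 genes, 13 were at least 1.5-fold higher in F3 Gdf10 than in committed-list cells and 4 at least 1.5-fold lower, against 8.74% and 7.91% of all genes. Of those 13, 10 were among the 15 elastic and matricellular genes at that level. Against interstitial cells 6 of the 47 genes were at least 1.5-fold higher in interstitial cells and 25 lower, against 7.33% and 11.1% of all genes.

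In the HFD library several of these contrasts were smaller. Fbn1 stood at 1199.9 CPM in interstitial cells, 352 CPM in the committed-list cluster and 521 CPM in F3 Gdf10 cells, and the ratio over the committed-list cluster was 3.41. Col15a1 stood at 242, 330.4 and 435 CPM and Col4a1 at 379.5, 426 and 559 CPM, so that interstitial cells still had the lowest level of both. Eln stood at 116, 121 and 176 CPM, and Mfap4 at 101, 107 and 91.9 CPM, with the HFD F3 Gdf10 cluster, unlike the NCD one in its leading genes, lowest of the 3 for Mfap4. Of 48 genes, 12 were at least 1.5-fold higher in interstitial cells than in the committed-list cluster and 3 lower, against 13.6% and 7.49% of all genes. Against F3 Gdf10 cells 5 of 48 were higher in interstitial cells and 9 lower, against 8.80% and 15.8%. Between F3 Gdf10 cells and the committed-list cluster 10 of 47 were higher in the former and 1 lower, against 22.7% and 6.42%. Macrophage markers summed to 1214 CPM in HFD interstitial cells, 1864 CPM in the committed-list cluster and 664 CPM in F3 Gdf10 cells, against 146 to 153 CPM in the NCD groups, and their part in the smaller contrasts was not tested.

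**Figure D2:**
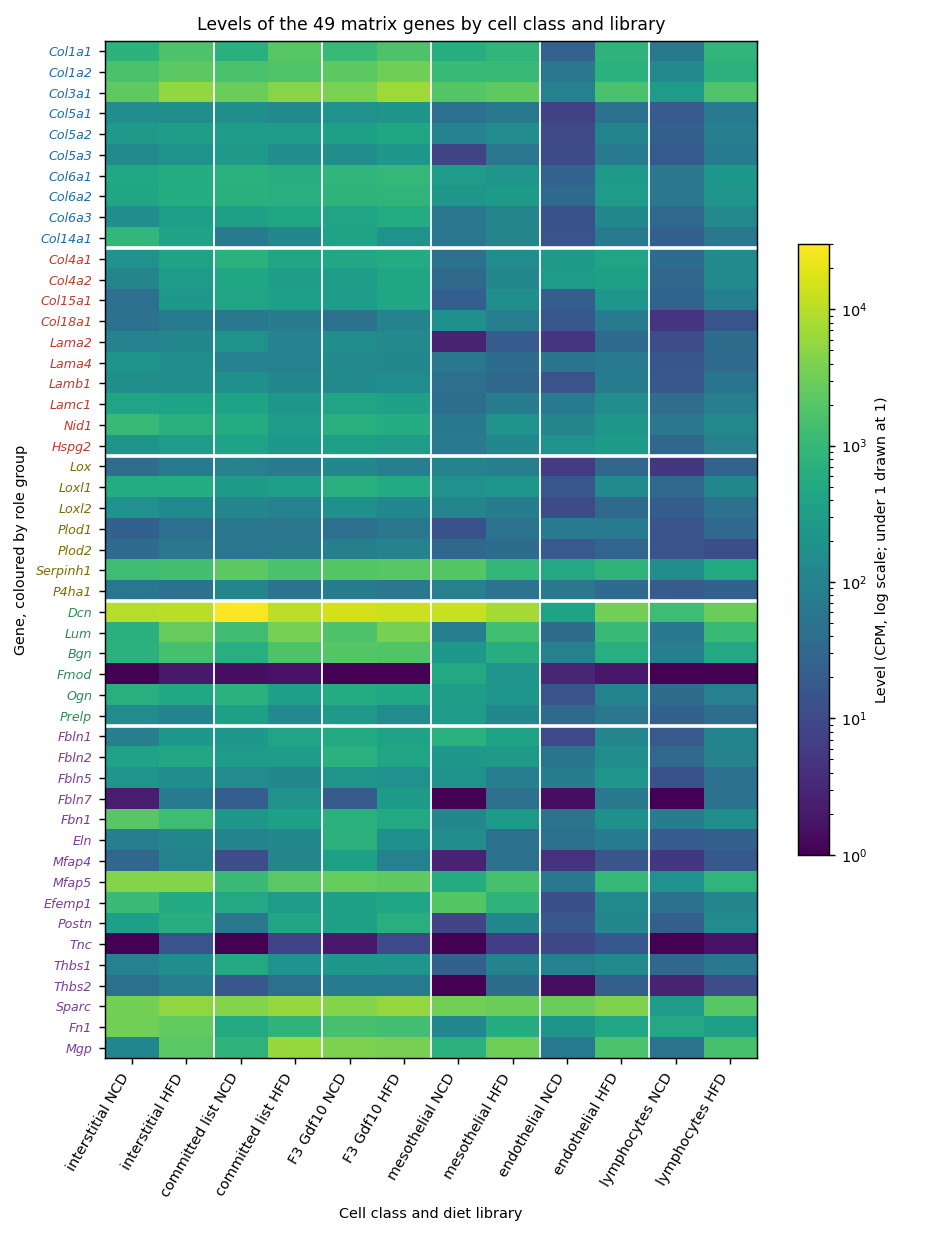
Level of each gene (rows, gene names coloured by role group) in 5 cell classes and in lymphocytes for the NCD and HFD libraries (columns), as CPM on a log colour scale with values under 1 drawn at 1. Eln and Mfap4 are bright in NCD F3 Gdf10 cells (752 and 352 CPM), Fbn1 and Col14a1 in NCD interstitial cells (2064 and 927 CPM), and Fmod only in mesothelial cells (518 and 219 CPM) among the columns drawn.

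Over all progenitors, which came from different clusters in the 2 libraries, the type I and III collagens were higher in the HFD library. Col1a1 stood at 782 and 1839.7 CPM in NCD and HFD progenitors, a ratio of 2.35 (2.29 to 2.41), and Col3a1 at 2971 and 5609 CPM, a ratio of 1.89 (1.86 to 1.91). Col1a2, whose chain joins that of Col1a1 in type I collagen, stood at 1707 and 2341 CPM, below the 1.5-fold line. The group's summed level was 8157 and 12552 CPM, a ratio of 1.54 (1.53 to 1.55). On the log2 scale this is 0.62. It was 0.90 in clusters with little free RNA, where the HFD side has no committed-list cells, and 0.56 between the F3 Gdf10 clusters.
Over all progenitors most chains of collagens V and VI stayed near 1. Col5a1 stood at 172 and 163 CPM, Col5a2 at 299 and 343 CPM, and Col5a3 at 207 and 193 CPM. Col6a1 stood at 684 and 708 CPM and Col6a2 at 645 and 687 CPM. Col6a3 stood at 316 and 451 CPM. Col14a1 was the exception in the group, at 373 and 218 CPM, 1.71-fold lower.
In the interstitial cells Col3a1 was 2.39-fold, Col6a3 2.16-fold and Col1a1 2.15-fold higher and Col14a1 2.35-fold lower, and in F3 Gdf10 cells Col3a1 was 1.83-fold and Col1a1 1.62-fold higher and Col14a1 2.04-fold lower. In the 110 HFD interstitial cells with little free RNA Col3a1 stood at 7108 CPM, 3.01-fold over NCD interstitial cells, Col1a1 at 1523 CPM, 1.95-fold, and Col1a2 at 3198 CPM, 2.02-fold. Col14a1 stood at 618 CPM there, a ratio of 0.667 (0.599 to 0.740), and was 1.29-fold lower over all progenitors with little free RNA. In the same 110 interstitial cells the chains of collagens V and VI were higher too. Col5a1 was 1.40-fold, Col5a2 1.58-fold, Col5a3 1.86-fold, Col6a1 1.55-fold, Col6a2 1.47-fold and Col6a3 2.56-fold over NCD interstitial cells. The type I and III chains thus stood higher both in all HFD interstitial cells and in those with few macrophage transcripts. Lymphocytes also held more of them in the HFD library, Col1a1 at 63.6 and 873 CPM.

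Of all 48 genes at or above 10 CPM in progenitors of either library, 9 were at least 1.5-fold higher in the HFD library and 9 at least 1.5-fold lower, against 8.15% and 14.9% of all 8075 genes. The median log2 ratio was -0.01 for the 48 genes and -0.21 for all genes. In interstitial cells 20 of 48 were higher and 4 lower, against 10.8% and 16.9% of all genes, with medians of 0.47 and -0.14. In interstitial cells of clusters with little free RNA 27 of 47 were higher and 3 lower, against 11.9% and 12.8%, with medians of 0.65 and -0.02. Over all progenitors of such clusters, with the unlike mixtures given above, 12 of 47 were higher and 4 lower, against 7.58% and 8.58%. In F3 Gdf10 cells 7 of 47 were higher and 5 lower, against 10.4% and 12.1%, so that the shares between these unlike clusters were near those of all genes. Between the NCD committed-list cells and the HFD committed-list cluster, which are not like populations, 14 of 47 were higher and 12 lower, against 10.1% and 31.0% of all genes.

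**Figure D3:**
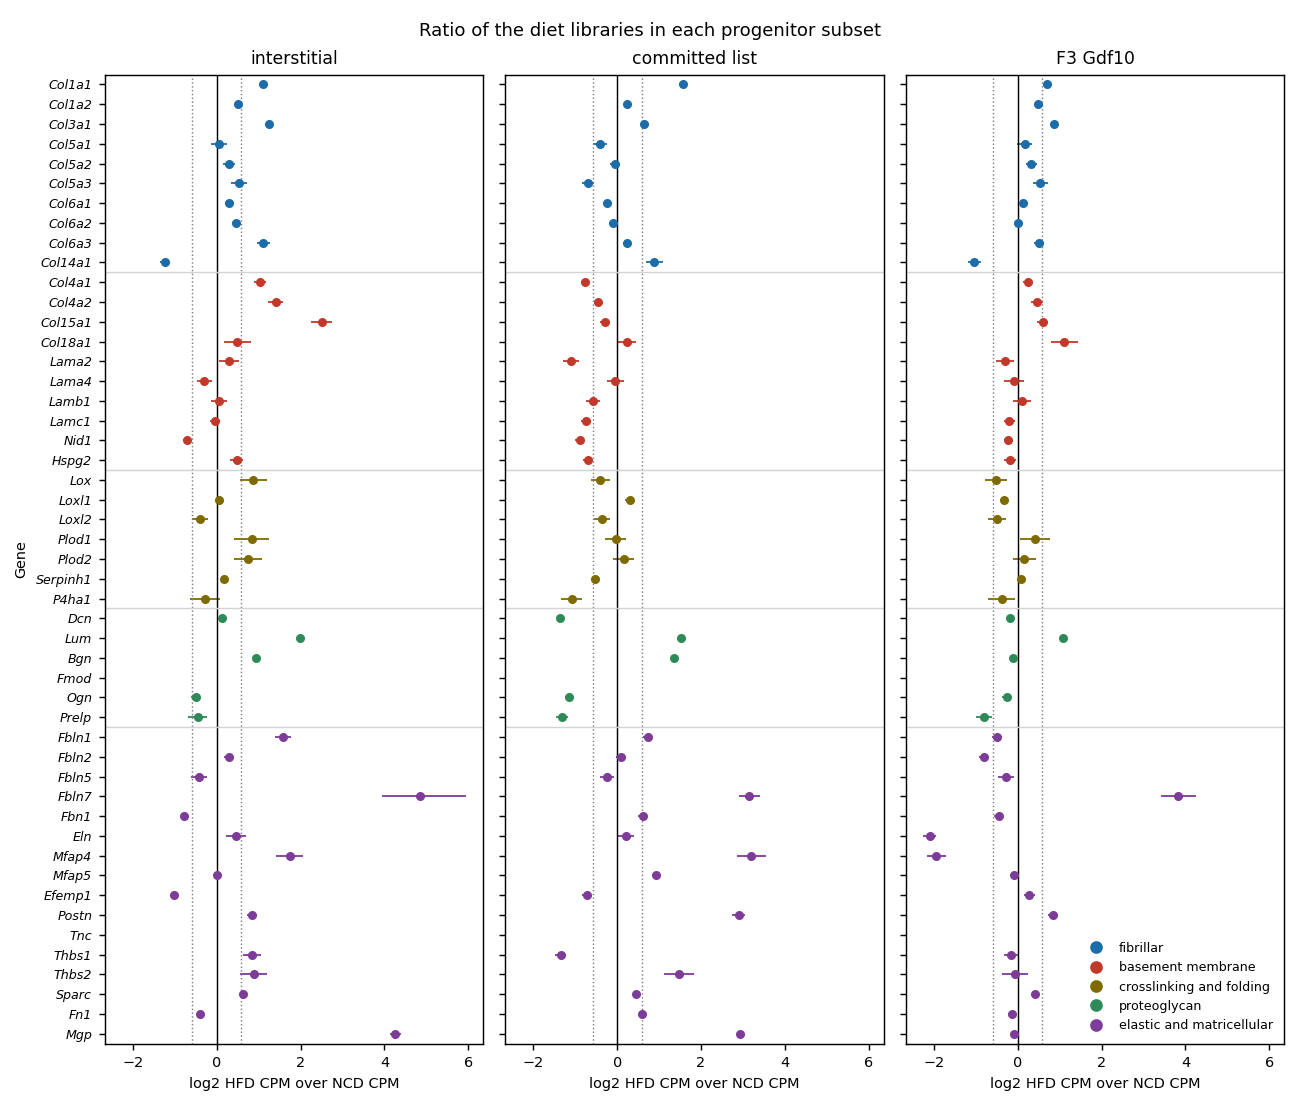
log2 of HFD CPM over NCD CPM (horizontal axis) for each gene (vertical axis, coloured by role group) in interstitial cells, in the committed-list populations and in F3 Gdf10 cells, with exact 95% intervals that cover counting error. Dotted lines mark 1.5-fold either way, and genes under 10 CPM in both libraries or at 0 in one are not drawn. Fbln7 lies far to the right in all 3 panels, of which the committed-list one sets unlike populations side by side. Eln and Mfap4 lie far to the left in F3 Gdf10 cells, where they were 4.28-fold and 3.83-fold lower between clusters with different leading genes.

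Basement membrane genes differed by subset. Their summed level was 3106 CPM in NCD and 2664 CPM in HFD progenitors, a ratio of 0.858 (0.843 to 0.872). The log2 ratio was -0.22, and 0.06 in clusters with little free RNA, where 1671 of 3211 NCD cells but 0 of 716 HFD cells are on the committed list. In interstitial cells Col15a1 stood at 42.7 and 242 CPM, a ratio of 5.67 (4.78 to 6.76), Col4a2 at 109 and 288 CPM, a ratio of 2.65, and Col4a1 at 186 and 379.5 CPM, a ratio of 2.04 (1.84 to 2.26). The 3 genes thus stood nearer, in HFD interstitial cells, to the level of the other progenitors. In the 110 cells with little free RNA the ratios were 5.54, 2.87 and 1.93.
Col18a1, the source of endostatin, was 2.16-fold higher in F3 Gdf10 cells (46.1 and 99.8 CPM). Nid1, which links laminin to type IV collagen, was 1.63-fold lower in HFD interstitial cells (1031 and 632 CPM), but its ratio was 0.952 in the clusters with little free RNA. The laminin chains were within 1.5-fold in all interstitial cells, with Lama2 at 95.6 and 117 CPM, Lama4 at 209 and 171 CPM, Lamb1 at 161 and 167 CPM, and Lamc1 at 410.2 and 399.8 CPM, while Hspg2, perlecan, stood at 204 and 284 CPM. In the 110 cells with little free RNA Hspg2 was 1.57-fold (1.34 to 1.83), Lama2 1.51-fold (1.19 to 1.91) and Lamc1 1.47-fold (1.31 to 1.64) higher.
The levels of the committed-list populations stand side by side here. Col4a1 stood at 724 CPM in NCD committed-list cells and 426 CPM in the HFD cluster, Nid1 at 567 and 304 CPM, Lamc1 at 393 and 234 CPM, Hspg2 at 394 and 241 CPM, and Lama2 at 203 and 94.7 CPM. Macrophage markers summed to 146 and 1864 CPM in the same cells, and no HFD cluster on the committed list had little free RNA.

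The crosslinking and folding group had a diet ratio near 1 in progenitors. The summed level was 2786 CPM in NCD and 2522 CPM in HFD progenitors, a ratio of 0.905 (0.890 to 0.921) that passed 1 under other settings (log2 0.12 in clusters with little free RNA against -0.14 here), and Serpinh1 took 69.1% and 66.7% of it. P4ha1, a prolyl 4-hydroxylase subunit, was the 1 gene of the 7 past 1.5-fold, at 87.7 and 52.6 CPM. Lox stood at 81.5 and 73.9 CPM, Loxl1 at 437 and 469.8 CPM, Loxl2 at 149 and 115 CPM, Plod1 at 47.5 and 54.8 CPM, and Plod2 at 57.3 and 73.1 CPM. In interstitial cells Lox was 1.83-fold (1.46 to 2.30), Plod1 1.78-fold and Plod2 1.68-fold higher, each from a level under 50 CPM in the NCD library, and 1.93-fold, 1.38-fold and 1.64-fold in the 110 cells with little free RNA. The group's ratio was thus well below that of the fibrillar collagens in the same cells.

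The proteoglycans diverged. Lum, lumican, stood at 1192 and 3381 CPM in NCD and HFD progenitors, a ratio of 2.84 (2.78 to 2.89), and Bgn at 938 and 1659 CPM, a ratio of 1.77 (1.73 to 1.81). Dcn stood at 20243 and 11479 CPM, 1.76-fold lower, Ogn, osteoglycin, at 683 and 412 CPM, 1.65-fold lower, and Prelp, a proteoglycan with a heparin-binding end, at 271 and 132 CPM, 2.06-fold lower. All 5 proteoglycans at or above 10 CPM were thus past 1.5-fold over all progenitors. Of these, 2 were higher and 3 lower, against 8.15% and 14.9% of all genes. In interstitial cells Lum and Bgn were at least 1.5-fold higher and 0 of 5 lower, against 10.8% and 16.9% of all genes. In F3 Gdf10 cells Lum was higher and Prelp lower (253 and 145 CPM), against 10.4% and 12.1%. Ogn stood at 657 and 465 CPM in interstitial and 577 and 479 CPM in F3 Gdf10 cells.
Lum was 3.93-fold higher in interstitial and 2.12-fold higher in F3 Gdf10 cells. Bgn was 1.92-fold higher in interstitial cells and stood at 1951 and 1806 CPM in F3 Gdf10 cells. Dcn stood at 9346 and 10206 CPM in interstitial cells and at 15622 and 13687 CPM in F3 Gdf10 cells, and at 27831 CPM in NCD committed-list cells and 10749 CPM in the HFD committed-list cluster. Lymphocytes held Lum at 63.0 and 1022 CPM and Dcn at 1202 and 2985 CPM.

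Elastic and matricellular genes held the largest single ratios. Fbln7, a fibulin that binds cells and other matrix proteins, stood at 15.9 and 183 CPM in NCD and HFD progenitors, a ratio of 11.5 (10.0 to 13.3). It reached 273 CPM in HFD F3 Gdf10 cells, 14.1-fold over 19.3 CPM in the NCD cells, and 66.9 CPM in HFD interstitial cells, 29.0-fold (15.3 to 61.8) over 2.31 CPM. In the 110 interstitial cells with little free RNA it stood at 24.1 CPM, from 15 UMIs, 10.5-fold (4.39 to 26.0) over the NCD cells. After each cell was thinned to 2000 UMIs, a Fbln7 UMI was found in 3.32% of NCD and 35.6% of HFD F3 Gdf10 cells. Without thinning the shares were 6.26% and 46.2%. In lymphocytes the thinned shares were 0% and 9.36%, at median depths of 2706 and 1993 UMIs against 4250 and 3192 UMIs in F3 Gdf10 cells. The HFD share in F3 Gdf10 cells thus stood well above that of lymphocytes, whereas the thinned share in HFD interstitial cells, 11.4%, was close to it.
Mgp stood at 1196 and 4273 CPM in progenitors, a ratio of 3.57 (3.51 to 3.64). The difference was uneven, with 112 and 2145 CPM in interstitial cells and 3858 and 3641 CPM in F3 Gdf10 cells. Lymphocytes held 52.4 and 1464 CPM, and the 110 interstitial cells with little free RNA held 733 CPM, 6.52-fold (5.73 to 7.43) over NCD interstitial cells.
Postn stood at 200.3 and 559 CPM in progenitors, a ratio of 2.79 (2.66 to 2.93). It was 1.78-fold higher in interstitial cells (342 and 610.1 CPM) and 1.79-fold higher in F3 Gdf10 cells (371 and 663 CPM), and 2.60-fold higher in the interstitial cells with little free RNA. Thbs2 was 1.78-fold higher in progenitors (34.9 and 62.2 CPM), while Thbs1 was 1.74-fold lower (344 and 198 CPM). The subsets did not share these differences. Thbs1 was 1.66-fold higher (1.32 to 2.09) in the 110 interstitial cells with little free RNA and stood at 247 and 222 CPM in F3 Gdf10 cells. It stood at 515 CPM in NCD committed-list cells and 202 CPM in the HFD committed-list cluster. Thbs2 stood at 44.3 and 81.6 CPM in interstitial and 71.5 and 68.1 CPM in F3 Gdf10 cells.

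Elastin and Mfap4 were lower in the HFD than in the NCD F3 Gdf10 cluster, which are unlike populations, Mfap4 and Eln being among the leading genes of the NCD one. Eln stood at 752 and 176 CPM, 4.28-fold lower (3.83 to 4.78), and Mfap4 at 352 and 91.9 CPM, 3.83-fold lower (3.29 to 4.49). The thinned share of F3 Gdf10 cells with an Eln UMI was 47.4% in NCD and 24.3% in HFD, and the unthinned share was 60.2% and 35.0%. Lymphocytes had thinned shares of 0.917% and 4.26%. Fbln2 was 1.74-fold lower in the same cells (736 and 423 CPM), and Fbln1 stood at 541 and 383 CPM.
In interstitial cells Mfap4 was instead 3.33-fold higher (30.2 and 101 CPM) and Fbln1 2.98-fold higher (81.5 and 243 CPM). In the 110 cells with little free RNA they were 3.40-fold and 1.72-fold higher. The summed elastic and matricellular level was 12485 and 17669 CPM in progenitors, a ratio of 1.42 (1.41 to 1.43), of which Sparc, a collagen-binding matricellular protein, took 33.6% and 33.3%. Sparc itself stood at 4192 and 5881 CPM.
The interstitial genes Fbn1 and Efemp1, a fibulin, were lower in HFD interstitial cells, Fbn1 at 2064 and 1199.9 CPM and Efemp1 at 1105 and 543 CPM. In the 110 HFD interstitial cells with little free RNA Fbn1 stood at 2014 CPM, a ratio of 0.976 (0.919 to 1.04), and in the other HFD interstitial cluster, where macrophage markers were at 27.8% of library level, at 826 CPM. Efemp1 stood at 727 CPM there, a ratio of 0.658. Fn1 was 3330.1 and 2523 CPM in all interstitial cells, Mfap5 4421 and 4439 CPM, and Fbln5, a fibulin needed for elastic fibre assembly, 218 and 162 CPM. Tnc had 0 UMIs in NCD interstitial cells, which allows up to 0.693 CPM, and 14.7 CPM in the HFD library, at least 21.2-fold higher but a low level. In the 110 cells with little free RNA it stood at 3.22 CPM from 2 UMIs, so that bound does not hold there.

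**Figure D4:**
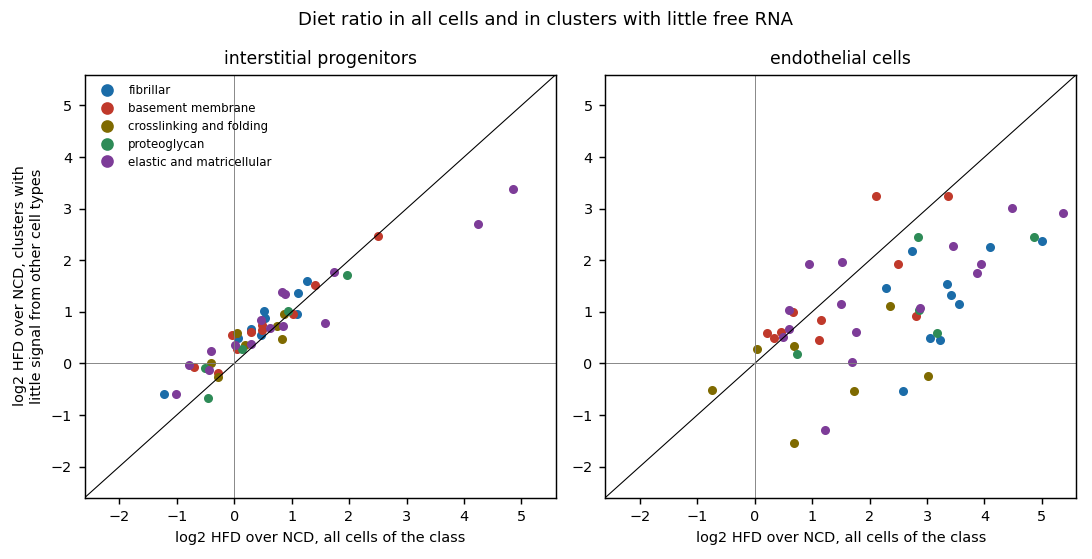
log2 of HFD over NCD CPM in all cells of a class (horizontal axis) and in its clusters with little free RNA (vertical axis) for interstitial progenitors (left) and endothelial cells (right), 1 point per gene coloured by role group, with the line of equality. Among interstitial points Col15a1 lies near the line with ratios of 5.67 and 5.54, and Mgp (19.1 and 6.52), Fbln7 (29.0 and 10.5) and Fbn1 (0.581 and 0.976) lie off it, while most endothelial points lie below it, for example Col1a1 with HFD levels of 828 CPM in all cells and 74.7 CPM in clusters with little free RNA.

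Mesothelial cells, which line the fat pad, had a matrix profile of their own in the NCD library. Fmod, fibromodulin, which regulates fibril growth, stood at 518 CPM in mesothelial cells and 1.05 CPM in progenitors, from 190 and 16 UMIs, and at 219 and 1.39 CPM in the HFD library. Efemp1 was 3.02-fold (1957 against 647 CPM), Col18a1 3.07-fold (174 against 56.9 CPM) and Fbln1 2.86-fold (736 against 257 CPM) higher than in progenitors. Those 4 were the genes at least 1.5-fold higher of 48, and 34 were at least 1.5-fold lower, against 25.1% and 23.7% of all genes. Type IV collagen and laminin were among the lower ones, with Col4a1 at 46.3 CPM and Lama2 at 2.73 CPM, the latter from 1 UMI. Serpinh1 stood at 1955 CPM, close to the 1927 CPM of progenitors.
In HFD mesothelial cells Efemp1 stood at 818 CPM, Fmod at 219 CPM, Fbln1 at 387 CPM and Serpinh1 at 915 CPM, each lower than in the NCD cells. Other genes were higher in the HFD mesothelial cells, such as Lum at 84.5 and 1346 CPM and Mgp at 747 and 3067 CPM. Of 48 genes 22 were at least 1.5-fold higher and 11 lower, against 25.3% and 36.3% of all genes. Against HFD progenitors 2 of 49 were higher and 38 lower, against 28.5% and 26.8%. Of the 60 HFD cells, 52 lay in a cluster with progenitor markers at 84.4% and macrophage markers at 38.7% of library level, against 13.6% and 2.50% in the main NCD mesothelial cluster. The mesothelial markers themselves summed to 8748 CPM in NCD and 3002 CPM in HFD, and the part of either in these differences was not tested.

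Endothelial cells had type IV collagen, perlecan and Sparc at levels of the order of those in progenitors. In the NCD library Col4a2 stood at 303 CPM against 324 CPM in progenitors, Col4a1 at 257 against 524 CPM, Hspg2 at 199 against 331 CPM and Sparc at 2862 against 4192 CPM. Fibrillar collagens and decorin were near absent, with Col1a1 30.2-fold and Dcn 54.0-fold lower than in progenitors. Of 47 genes 0 were at least 1.5-fold higher in endothelial cells and 43 lower, against 27.3% and 24.4% of all genes. Plod1, a lysyl hydroxylase, was the gene nearest to that line from below, at 70.4 against 47.5 CPM. Macrophage markers summed to 3791 CPM in NCD endothelial cells, so the class was not free of other RNA in that library either. The sum was 2787 CPM in HFD endothelial cells. Endothelial clusters with little free RNA were chosen by progenitor markers only and may hold macrophage RNA.
The UMIs of Col4a1 per UMI of Col4a2 were 0.846 (0.731 to 0.979) in NCD endothelial cells and 1.62 (1.56 to 1.68) in NCD progenitors. In the HFD library they were 1.16 (0.951 to 1.42) and 1.31 (1.24 to 1.38). The UMIs of these 2 genes thus stood in different proportions in the 2 NCD classes, while in the HFD library the intervals overlapped. Transcription from the promoter region they share was not measured.
In HFD endothelial cells 42 of 48 genes were at least 1.5-fold higher than in NCD cells and 1 lower, against 15.6% and 24.2% of all genes, and progenitor markers were at 62.6% of library level. Against HFD progenitors 1 of 48 was higher and 38 lower, against 25% and 19.9%. In endothelial clusters with little free RNA (337 NCD and 66 HFD cells) the fibrillar group stood at 182 and 586 CPM, against 293 and 4047 CPM in all endothelial cells. The basement membrane group stood at 1004 and 1925 CPM there, a ratio of 1.92 (1.70 to 2.16). The clusters behind these sums differed between libraries, and within the largest shared one (220 NCD and 34 HFD cells) the group stood at 1120.5 and 1639.8 CPM. Col4a1 stood at 248 and 494 CPM, a ratio of 1.99 (1.55 to 2.54), Col15a1 at 18.2 and 172 CPM, a ratio of 9.45 (5.34 to 16.9), and Col18a1 at 15.2 and 144 CPM, with a ratio of 9.45 (5.04 to 17.9) from 20 and 25 UMIs. Fbln5 stood at 76.0 and 299 CPM, a ratio of 3.93. Within the largest shared cluster Col4a1 stood at 268 and 458 CPM, Col15a1 at 19.2 and 157 CPM, Col18a1 at 0 and 48.2 CPM, and Fbln5 at 57.7 and 157 CPM. Another NCD cluster, of 20 cells, had Col18a1 at 141 CPM and Fbln5 at 622 CPM. In the HFD library the progenitor level of Col15a1 (337 CPM) still exceeded that of the endothelial cells with little free RNA.

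Among other genes of the pathway in progenitors, 1 of 14 procollagen processing genes was at least 1.5-fold higher in the HFD library and 1 lower, the enhancer of procollagen cleavage Pcolce (548 and 1085 CPM) and its relative Pcolce2 (525 and 241 CPM). Of 15 genes of the transforming growth factor beta axis 3 were higher and 4 lower, including Tgfb1 (31.1 and 61.0 CPM) and the latency protein Ltbp1 (173 and 94.3 CPM). Of 14 matrix receptors 1 was higher and 2 lower, including Itga5, an integrin chain for fibronectin (94.3 and 58.3 CPM). Of 24 other matrix genes 2 were higher, Col8a1 (55.8 and 134 CPM) and Mfap2 (82.8 and 225 CPM), and 8 lower, including Smoc2 (632 and 222 CPM), Abi3bp (308 and 121 CPM) and the type IV chain Col4a5 (65.0 and 29.4 CPM). Of all genes in progenitors, 8.15% were at least 1.5-fold higher in the HFD library and 14.9% at least 1.5-fold lower. In the order given, the medians of these 4 lists were 0.04, 0.06, -0.24 and -0.48 on the log2 scale, beside -0.21 for all genes.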

How the data were processed

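Droplet-based 3' single-cell libraries of the stromal vascular fraction, 1 per diet, were analysed from the UMI count matrices the authors deposited. The submitters' processing notes name Cell Ranger, Seurat and mm10, with no versions. Barcodes were kept from 500 genes and 1000 UMIs upward where mitochondrial UMIs made up no more than 20%. Doublets were scored with Scrublet in scanpy 1.11.5 at an expected 5%, and its own threshold marked 182 of 7365 NCD and 0 HFD barcodes. In the HFD library all barcodes at or above the score that bounds the highest 5% were removed instead. With tied scores this took 422 of 6840 barcodes, more than 5%. The filters left 7163 and 6364 cells. Cells were clustered jointly on 2000 variable genes and 30 principal components (Leiden, resolution 1, then 0.3) and progenitors within each library (500 genes, 15 components, resolution 0.5), always without the 49 genes. Clusters took the name of the marker list they scored highest on. These settings were chosen after the data were seen, and the members and lists were chosen with earlier results of these data known.

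UMIs were summed per class and library and given as CPM, with 95% intervals that are exact Poisson for levels and conditional binomial for ratios. With 1 library a group there is no replicate error and no p-value. A gene was compared at 10 CPM or more in either sum and counted from 1.5-fold. All 49 genes are described, diet ratios are named mainly for genes at 50 CPM or more, and a count of 0 is taken as up to 3 counts. For shares of cells each cell was thinned to 2000 UMIs. Shallower cells were dropped there, 52 NCD and 117 HFD among F3 Gdf10 cells, 40 and 348 among interstitial cells, and 62 and 239 among lymphocytes. Intervals and limits cover counting error only. The script was tested on simulated counts. Software was Python 3.11.15, scipy 1.17.1 and pandas 2.3.3.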

Additional observations from a re-analysis of the deposited data

Results flagged for a closer look

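For the 12 genes listed here the HFD over NCD ratio was past 1.5-fold in opposite directions in 2 classes. The difference between the classes was not tested. The list does not hold every such gene, since Eln was higher in endothelial cells and lower in mesothelial and F3 Gdf10 cells. Values here are log2 ratios of CPM. In 9 of them endothelial cells had the higher value and it stood against a lower one in mesothelial or interstitial cells: Dcn with 3.18 and -0.74 (mesothelial), Efemp1 with 3.46 and -1.26 (mesothelial), Fbln1 with 3.61 and -0.93 (mesothelial), Col18a1 with 2.11 and -1.06 (mesothelial), Fbln5 with 1.52 and -1.17 (mesothelial), Prelp with 0.73 and -1.23 (mesothelial), Serpinh1 with 0.68 and -1.10 (mesothelial), Col14a1 with 2.28 and -1.23 (interstitial), and Fbn1 with 1.70 and -0.78 (interstitial). Fbln2 had 1.51 in endothelial cells and -0.80 in F3 Gdf10 cells. The F3 Gdf10 clusters of the libraries shared none of their leading 10 genes, so values for them set unlike populations side by side. Progenitor markers were at 62.6% of library level in HFD endothelial cells and at 5.39% in NCD ones, and their part in these values was not tested.

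For the other 2 genes the classes listed are not endothelial, although both genes were also at least 1.5-fold higher in HFD endothelial cells. Nid1 had 1.61 in mesothelial cells and -0.70 in interstitial cells. Mfap4 had 1.74 in interstitial cells and -1.94 in F3 Gdf10 cells.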

How the results depend on the processing

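Group values here are log2 ratios of summed CPM. In progenitors, HFD over NCD, the fibrillar group (0.62) stayed positive under every setting run: 0.83 with a stricter cell filter, 0.57 with doublets kept, 0.59 with the 49 genes left in the clustering, 0.81 with median-of-ratios scaling, 0.47 as a mean over cells, 0.63 with cells classed by their own marker score, 0.79 with free RNA subtracted and 0.90 in clusters with little free RNA. In the same order of settings, those that moved the basement membrane group (-0.22) gave -0.01 (filter), -0.26 (genes left in), -0.03 (scaling), -0.37 (mean over cells), -0.06 (subtracted) and 0.06 (little free RNA), the last a reversal. The crosslinking group (-0.14) gave -0.18 with doublets kept, -0.18 with the genes left in, -0.24 as a mean over cells and -0.12 by own score, and reversed to 0.08 (filter), 0.05 (scaling), 0.02 (subtracted) and 0.12 (little free RNA). The proteoglycan group (-0.45) gave -0.38, -0.41, -0.50, -0.26, -0.40, -0.43, -0.29 and -0.31 over all 8 settings. The elastic and matricellular group (0.50) gave 0.56 (filter), 0.45 (genes left in), 0.69 (scaling), 0.52 (own score) and 0.66 (subtracted).

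For interstitial over committed-list cells, the elastic and matricellular group (0.78 in NCD) gave 0.86 (filter), 0.86 (doublets kept), 0.88 (genes left in), 0.88 (scaling), 0.76 (mean over cells) and 0.73 (own score). In HFD (0.02) it gave 0.05 (filter), 0.69 (genes left in) and 0.12 (own score), and reversed to -0.05 (scaling), -0.04 (mean over cells) and -0.08 (subtracted). For committed-list over interstitial cells, the basement membrane group (0.48 in NCD) gave 0.65 (filter), 0.59 (doublets kept), 0.65 (genes left in), 0.38 (scaling) and 0.43 (mean over cells), and in HFD (-0.29) -0.18, -0.17, -0.35, -0.22, -0.23 and, by own score, -0.02. For endothelial cells over progenitors it (-1.57 in NCD) gave -1.37 (doublets kept), -1.67 (mean over cells) and -1.50 (own score), and in HFD (-0.49) -0.95 (filter), -0.61 (own score), -0.26 (subtracted) and -0.75 (little free RNA). Of the 49 genes, 9 were 1.5-fold higher in HFD progenitors, and 14 under median-of-ratios scaling and 14 with free RNA subtracted; 9 were lower, and 3, 5 and, with little free RNA, 4. Median-of-ratios scaling moved all progenitor ratios by 0.19. Fbn1 reversed in progenitors, to 0.02, with little free RNA. The cause of these shifts was not tested.

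No HFD committed-list cluster had little free RNA, so that setting gave no value for it and sets 716 HFD progenitors without committed-list cells against 3211 NCD ones, and Tnc gave none by own marker score. No paired analysis was possible because each diet has 1 library, and for the same reason no replicate was left out. The HFD library had a median of 2020 UMIs a barcode against 4230, so genes of few UMIs are the less certain there.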
